A study of Mus musculus with 62 samples.

Results

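Reactive astrocyte genes are the 10 genes Gfap, Vim, Serpina3n, Cd44, S1pr3, Timp1, Steap4, Hspb1, Cd109 and Fabp7, taken by symbol from the 47643 rows of a mouse neocortex expression table. They were described across all 12 groups, and the question was which of them rise while the filament genes Gfap and Vim do not. The study followed the neocortex of female mice during melanoma-induced cachexia, the wasting that accompanies some tumours. Animals were 2 months old at injection and received melanoma cells that cause cachexia (CAC), melanoma cells that do not (NCAC), or a mock injection (Con in the series text). Tissue was taken at 2, 4, 6 and 8 weeks after injection. Each group held 5 libraries, with the exception of CAC at 8 weeks, which held 7, giving 62 libraries. The design text gives NCI Ath/nude mice and the sample labels give C57BL6/J, so the strain cannot be stated; athymic nude mice lack a thymus and with it most T cells. No label says whether littermates or cages were shared, and p-values measure the spread between these libraries.

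Astrocytes are the glial cells that take up glutamate, buffer potassium and contact blood vessels. After injury, infection or systemic inflammation they become reactive, a state classically recognised by more of the intermediate filament proteins GFAP and vimentin and driven in part by STAT3 downstream of cytokine receptors. Panels of reactive genes also hold secreted inhibitors of proteases, surface receptors, stress proteins and, for some panels, genes named for the kind of insult that raised them.

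In outline, Serpina3n was higher and Fabp7 was lower in CAC neocortex at 8 weeks than in both other arms, while Gfap and Vim did not pass the test in either comparison. The same pair passed in CAC against NCAC at 6 weeks, together with Timp1 in a wider set of genes. No member passed at 2 or 4 weeks, and none passed in NCAC against mock at any week. A direct test of Serpina3n relative to Gfap or Vim within each library, run in CAC against mock only, did not pass after adjustment. In this design a lone ratio could not pass. The Gfap ratios were weak before adjustment too, with an unadjusted exact permutation p of 0.106 at 8 weeks and 0.635 at 6 weeks. The smallest p possible was 0.00253 at 8 weeks and 0.00794 at 6 weeks. Against Vim the unadjusted exact permutation p was 0.0328 at 8 weeks and 0.0397 at 6 weeks.

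The 250 bases before the RefSeq start are shown for 4 members, because these genes carry the contrast of the results: Serpina3n, which rose, Fabp7, which was lower, Gfap, which did not pass, and Steap4, which has matches to motifs of factors tied to reactivity. Sequences are from RefSeq on GRCm38.p6, 5′ to 3′ on the gene's strand. They lie at chr12:104406458-104406707 (plus strand) for Serpina3n, chr10:57784673-57784922 (plus strand) for Fabp7, chr11:102897201-102897450 (minus strand) for Gfap and chr5:7960222-7960471 (plus strand) for Steap4. Capitals mark matches to any of 5 motifs: STAT TTCNNNGAA, C/EBP TTGCNNAA, glucocorticoid receptor GNACA and TGTNC spaced by 3 bases, heat shock factor GAA, TTC and GAA spaced by 2 bases, and AP-1 TGANTCA.
Serpina3n: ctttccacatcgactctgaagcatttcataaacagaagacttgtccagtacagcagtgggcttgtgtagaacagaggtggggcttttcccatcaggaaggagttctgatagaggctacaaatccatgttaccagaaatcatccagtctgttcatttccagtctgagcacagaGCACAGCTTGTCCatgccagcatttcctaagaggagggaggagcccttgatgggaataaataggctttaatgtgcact
Fabp7: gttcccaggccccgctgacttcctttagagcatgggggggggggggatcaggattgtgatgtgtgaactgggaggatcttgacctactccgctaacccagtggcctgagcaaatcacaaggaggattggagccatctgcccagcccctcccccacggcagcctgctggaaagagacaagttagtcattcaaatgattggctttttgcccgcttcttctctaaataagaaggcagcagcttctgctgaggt
Gfap: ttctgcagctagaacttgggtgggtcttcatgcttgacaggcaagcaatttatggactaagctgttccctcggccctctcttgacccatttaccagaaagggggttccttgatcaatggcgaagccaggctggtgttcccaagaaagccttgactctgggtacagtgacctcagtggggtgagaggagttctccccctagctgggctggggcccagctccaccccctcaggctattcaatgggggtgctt
Steap4: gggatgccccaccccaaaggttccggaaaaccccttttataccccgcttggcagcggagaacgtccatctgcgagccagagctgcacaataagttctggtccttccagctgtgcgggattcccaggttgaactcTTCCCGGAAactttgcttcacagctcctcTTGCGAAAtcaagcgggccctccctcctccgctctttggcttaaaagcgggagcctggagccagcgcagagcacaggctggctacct

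Promoter windows were found for 9 of the 10 members, Cd109 being the one with no entry. Both strands were searched, and overlapping matches of different motifs were allowed. Serpina3n held the one match among the members to the glucocorticoid receptor motif, at positions -78 to -66 before the start, a motif found in 0.387% of 32851 windows. Steap4 held a STAT match at -116 to -108 and a C/EBP match at -87 to -80, motifs found in 7.02% and 9.56% of windows. The windows of Fabp7 and Gfap held none of these 5 motifs. Another motif, NF-kB GGG and CC spaced by 5 bases, was present in 6 of 9 members and in 45.8% of all windows, and is not capitalised. The heat shock factor motif was found in no member and in 0.466% of windows, and AP-1 in no member and 6.75% of windows. These matches describe letters in one window and were not tested as binding sites.

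Values are transcripts per 1000000 transcripts (TPM), which scale each gene by its length and each library to the same total. Depth was estimated at 44.9 to 50.6 M reads per library (M, 1000000) from the steps between low values. The tissue label was checked against its markers: the 7 excitatory neuron markers and the 15 homeostatic astrocyte genes were at 0 in no library. At 8 weeks the excitatory markers summed to 2636 to 3131 TPM in CAC, 2570 to 2896 TPM in NCAC and 2610 to 2775 TPM in mock. A few libraries stood apart in marker scores. CAC 4 week replicate 1 lay 3.28 log2 units below the median for striatum markers, CAC 8 week replicate 3 lay 4.21 above it for erythroid markers, and mock 2 week replicate 5 lay 3.00 above it for thalamus markers. Mock 8 week replicate 5 lay 1.53 above the median for the neuroinflammatory (A1) astrocyte genes. Week 4 was split by sequencing lane, with all CAC libraries on one lane and all mock libraries on the other, so lane and arm cannot be told apart there. All libraries of week 2 were on the lane of the week 4 CAC libraries. All libraries of weeks 6 and 8 were on the lane of the week 4 mock libraries. In orders of group means across weeks, given below, week and lane cannot be told apart between week 2 and weeks 6 and 8. The same holds within CAC between week 4 and weeks 6 and 8, and within mock between weeks 2 and 4.

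Levels among the 10 members ranged widely. Over the 62 libraries the mean level was 136 TPM for Gfap, 60.2 TPM for Fabp7, 46.5 TPM for Serpina3n, 44.7 TPM for Vim, 14.9 TPM for Hspb1, 6.67 TPM for S1pr3 and 1.94 TPM for Cd44. These 7 genes entered the main test, whose filter was an average level of 1 TPM or more. Timp1 (0.997 TPM), Cd109 (0.517 TPM) and Steap4 (0.281 TPM) did not, and were tested in a wider set, filtered at an average of 0.1 TPM or more. Non-coding genes overlap Gfap, Cd44, S1pr3 and Cd109 on the opposite strand in GENCODE vM21. At its mean level Timp1 rested on about 12.4 reads per library and Steap4 on about 12.4, against about 8042 for Gfap. The highest group mean was in CAC at 8 weeks for Vim, Serpina3n and Steap4, in CAC at 6 weeks for Gfap, Timp1, Hspb1 and Cd109, and in mock at 2 weeks for Cd44, S1pr3 and Fabp7. The lowest group mean was in CAC at 2 weeks for 6 members, namely Gfap, Vim, Serpina3n, Cd44, Hspb1 and Cd109. Differences were tested with limma on log2(TPM + 1) in one model of all 12 groups, with Benjamini-Hochberg adjustment over every gene tested, and a gene is said to have passed at an adjusted p under 0.05. This scale understates the change of genes near or under 1 TPM.

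**Figure D1:**
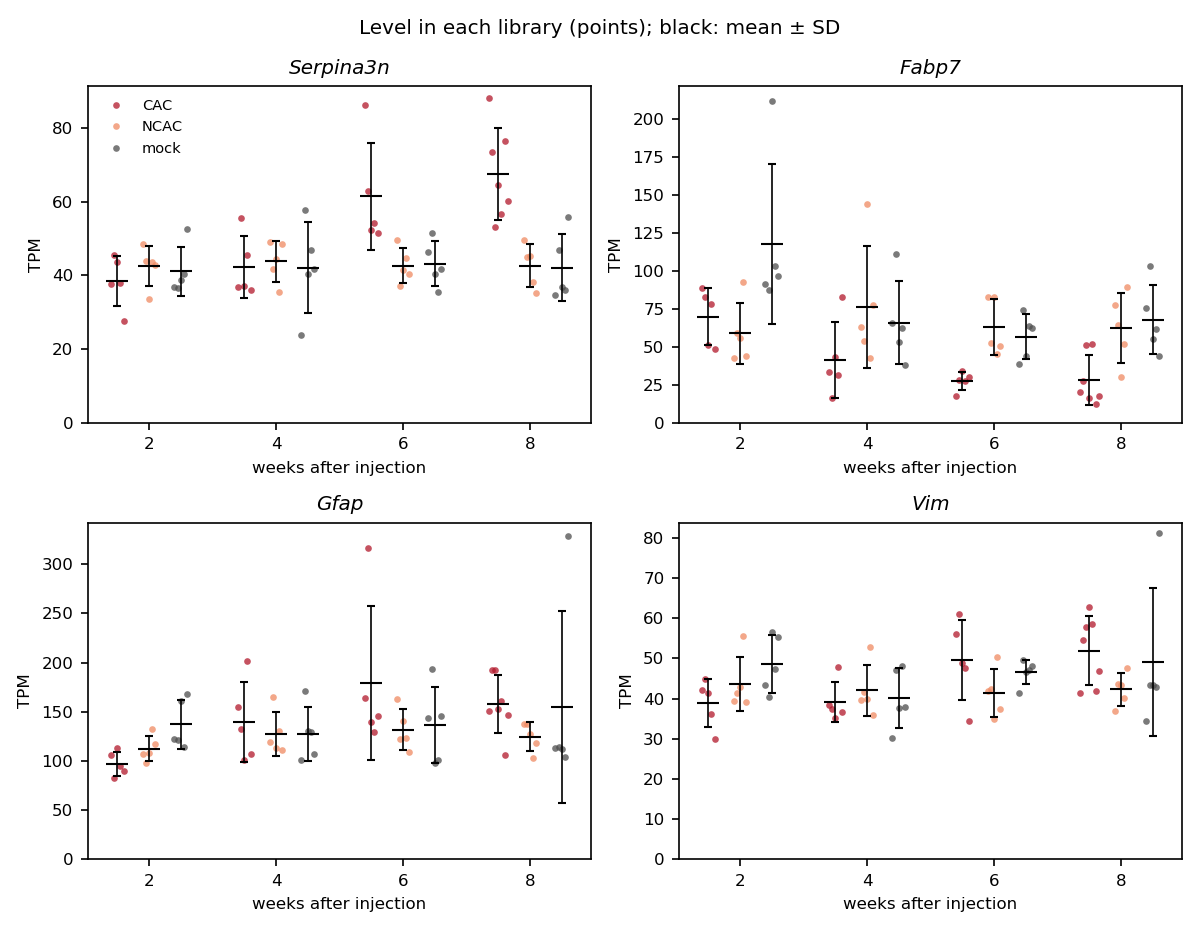
TPM of Serpina3n, Fabp7, Gfap and Vim (vertical axes, linear from 0) at 2, 4, 6 and 8 weeks, for CAC, NCAC and mock from left to right; each point is a library and black bars give the mean and SD. All CAC libraries for Serpina3n at 8 weeks (53 to 88.2 TPM) lie above all NCAC libraries (35.3 to 49.7 TPM), and one mock library at 8 weeks stands apart for Gfap (329 TPM) and Vim (81.3 TPM).

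Gfap encodes the glial fibrillary acidic protein, the main filament of astrocytes, at chr11:102887336-102900912 (minus strand, GRCm38). At 8 weeks it was at 106 TPM at the lowest, 153 at the median and 192 at the highest of the 7 CAC libraries. It was at 137, 138, 127, 103 and 118 TPM in the NCAC libraries, and at 113, 114, 112, 104 and 329 TPM in the mock libraries. Of the 7 CAC libraries 6 lay above the 4 lower mock libraries and below the remaining one, so the groups overlapped. Against NCAC, 6 of the 7 CAC libraries lay above every NCAC library. The fitted log2 fold change in CAC was 0.17 against mock (SE 0.20, limma adjusted p = 0.671) and 0.32 against NCAC (SE 0.20, limma adjusted p = 0.364). Leaving out mock replicate 5 moved the first value to 0.482 (adjusted p = 0.104), which also did not pass. In bulk tissue, fewer cells of a type and less RNA per cell cannot be told apart, here or in any result that follows.

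At 6 weeks Gfap was at 164, 317, 140, 129 and 146 TPM in CAC, 163, 122, 141, 123 and 109 TPM in NCAC, and 144, 193, 98.3, 101 and 146 TPM in mock. One CAC library stood high and the other 4 lay within the range of the mock libraries. In the fit Gfap differed by 0.35 from mock on the log2 scale (SE 0.22, limma adjusted p = 0.491), and without CAC replicate 2 it was 0.127 (adjusted p = 0.812). Against NCAC at 6 weeks it was 0.37 (SE 0.22, limma adjusted p = 0.243). At 2 weeks Gfap was at 106, 82.8, 113, 94.6 and 89.8 TPM in CAC against 122, 121, 161, 114 and 168 TPM in mock. Those ranges did not overlap, with CAC lower; 1.16% of all genes tested showed non-overlapping ranges in that direction. Its log2 fold change of -0.48 (SE 0.22, limma adjusted p = 0.174) did not pass.

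Vim encodes vimentin, the filament protein that astrocytes share with endothelial and other mesenchymal cells, at chr2:13573927-13582826 (plus strand). At 8 weeks Vim was at 41.3 TPM at the lowest, 54.5 at the median and 62.7 at the highest in CAC. NCAC libraries were at 36.8, 43.7, 43.5, 40.1 and 47.6 TPM, and mock libraries were at 34.4, 43.3, 43.4, 42.8 and 81.3 TPM. Most CAC libraries lay above 4 of the 5 mock libraries, and all lay below the remaining one. Against NCAC, 4 of the 7 CAC libraries lay above every NCAC library. For Vim the fitted log2 fold change in CAC was 0.13 against mock (SE 0.14, limma adjusted p = 0.635) and 0.28 against NCAC (SE 0.14, unadjusted p = 0.0498, limma adjusted p = 0.235). Without mock replicate 5 the first value was 0.324 (adjusted p = 0.138). At 6 weeks CAC libraries held 56, 61, 48.8, 47.7 and 34.5 TPM, against 41.5, 49.7, 46.6, 47.2 and 48 TPM in mock. In the fit this was 0.07 on the log2 scale (SE 0.15, limma adjusted p = 0.915), and -0.0144 without CAC replicate 2 (adjusted p = 0.976). Against NCAC at 6 weeks Vim differed by 0.24 (SE 0.15, limma adjusted p = 0.282).

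The filament partners of Gfap and Vim were read beside them. Of 6 genes tested in CAC against mock at 8 weeks, none was higher and 1 was lower, and the list median was -0.02 against 0.02 over all genes. The lower gene was Nes, which encodes nestin, a filament protein of neural progenitors and of some vascular and reactive cells. Nes was at 2.85 to 5.09 TPM in CAC against 6.07 to 8.55 TPM in mock, with a log2 fold change of -0.75 (SE 0.13, limma adjusted p = 8.02e-05). Endothelial markers summed to 170 to 246 TPM in CAC and 183 to 204 TPM in mock, and Kdr, an endothelial receptor, had a log2 fold change of -0.78 (SE 0.13, limma adjusted p = 9.54e-05). The part of vascular cells in the Nes result was not tested.

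**Figure D2:**
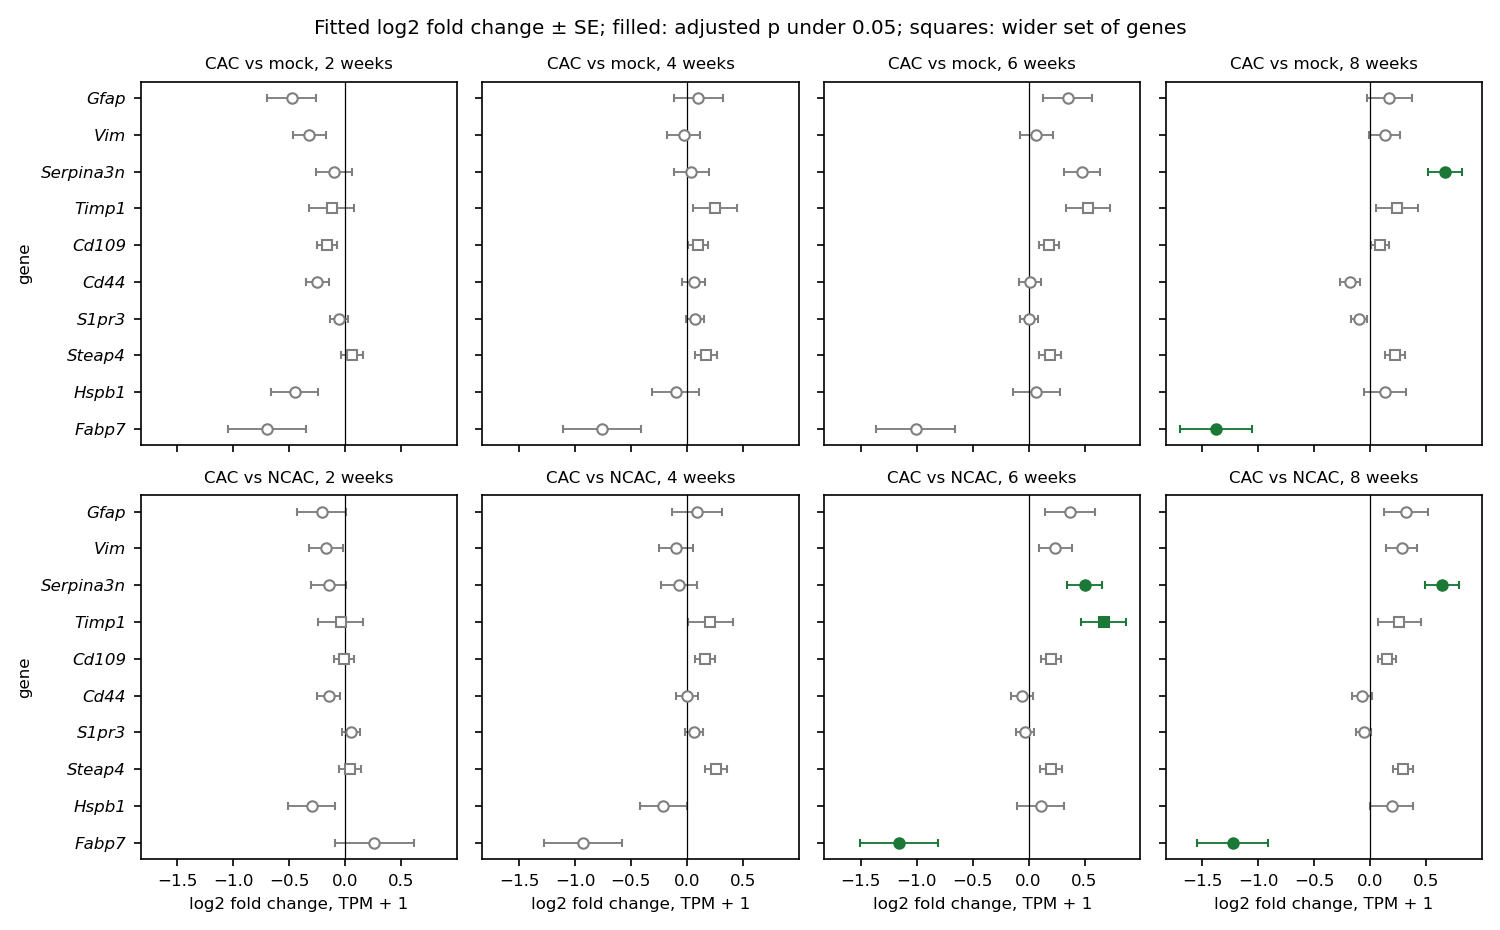
Fitted log2 fold change of TPM + 1 (horizontal axes) with its SE for each of the 10 genes, in CAC against mock (top row) and CAC against NCAC (bottom row) at each week; filled symbols passed at an adjusted p under 0.05 and squares are the 3 genes tested in the wider set. Serpina3n (0.67) and Fabp7 (-1.38) are the filled symbols of CAC against mock at 8 weeks, and no symbol is filled at 2 or 4 weeks.

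Serpina3n encodes a secreted inhibitor of serine proteases that many reactive astrocytes make, at chr12:104406729-104414329 (plus strand). At 8 weeks Serpina3n was at 53 TPM at the lowest, 64.4 at the median and 88.2 at the highest in CAC. NCAC libraries were at 49.7, 44.9, 45.2, 38.1 and 35.3 TPM, and mock libraries were at 34.7, 47, 36.8, 35.9 and 55.8 TPM. Every CAC library lay above every NCAC library, and 1 mock library, replicate 5, reached into the CAC range. Serpina3n had a log2 fold change in CAC of 0.67 against mock (SE 0.15, limma adjusted p = 0.00201) and 0.64 against NCAC (SE 0.15, limma adjusted p = 0.00463). In CAC against mock at 8 weeks 2 of the 7 members tested passed, beside 8.6% of 14494 genes (4.91% higher and 3.69% lower in CAC). In CAC against NCAC at 8 weeks 2 of 7 members passed, beside 6.02% of genes (4.39% higher and 1.64% lower). Non-overlapping ranges with CAC above NCAC, as for Serpina3n, were seen in 0.938% of genes.

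At 6 weeks Serpina3n was at 86.3, 62.8, 52.3, 54.2 and 51.5 TPM in CAC, 49.7, 37, 41.4, 44.6 and 40.3 TPM in NCAC, and 46.4, 51.6, 40.3, 35.5 and 41.8 TPM in mock. All 5 CAC libraries lay above all 5 NCAC libraries, a pattern with 5.26% of genes, and the lowest CAC library lay just under the highest mock library. Serpina3n passed against NCAC (log2 fold change 0.50, SE 0.16, limma adjusted p = 0.0399) and not against mock (0.48, SE 0.16, limma adjusted p = 0.104). The share of all genes that passed was 9.65% against NCAC (8.05% higher and 1.6% lower in CAC) and 1.63% against mock. The call against NCAC was lost with trimmed mean scaling (0.411, adjusted p = 0.106), with 5 marker scores as terms (0.463, adjusted p = 0.102), with no filter (adjusted p = 0.0667) and with only the groups compared (adjusted p = 0.0523). It was also lost without CAC replicate 1 (0.369, adjusted p = 0.161) or 4 (0.534, adjusted p = 0.0589), and without NCAC replicate 2, 3, 4 or 5 (0.449 to 0.515, adjusted p from 0.0591 to 0.105).

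Earlier, Serpina3n did not separate the arms. At 2 weeks its mean was 38.4 ± 6.90 TPM in CAC, 42.5 ± 5.36 TPM in NCAC and 41.1 ± 6.68 TPM in mock, and at 4 weeks 42.1 ± 8.41 TPM in CAC, 43.8 ± 5.54 TPM in NCAC and 42.1 ± 12.3 TPM in mock (SD, n = 5 each). In the order of group means CAC at 8 weeks (67.5 ± 12.5 TPM, SD, n = 7) and CAC at 6 weeks (61.4 ± 14.6 TPM, SD, n = 5) came highest and differed by less than their spread, and the other 10 groups lay between 38.4 and 43.8 TPM. The CAC minus mock difference was 0.77 log2 units larger at 8 weeks than at 2 weeks (SE 0.22, limma adjusted p = 0.0573), which did not pass; 1.32% of all genes did. No member passed in this change by limma, with 4 (Gfap, Vim, Serpina3n and Hspb1) at an unadjusted p under 0.05. The share of all genes at such a p was not counted. No member passed in the counterpart of this change between 6 and 8 weeks, where 0% of genes passed and no member had such a p. Serpina3n passed without CAC 2 week replicate 2 (0.84, adjusted p = 0.0461) or 3 (0.82, adjusted p = 0.0484), or without CAC 8 week replicate 3 (0.83, adjusted p = 0.0266). Without mock 8 week replicate 5 this change of Serpina3n was 0.88 (adjusted p = 0.0219) and Gfap (0.97, adjusted p = 0.0294) and Vim (0.64, adjusted p = 0.0468) passed as well. Serpina3n belongs to a cluster of closely related serpin genes, and how the authors counted reads shared among them is not given in the sources used here. Its relatives Serpina3m, Serpina3g and Serpina3f averaged 0.797, 0.367 and 0.0493 TPM over all libraries.

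Whether Serpina3n changed apart from Gfap and Vim was tested within libraries, as the log2 ratio of one gene to the other. The ratio of Serpina3n to Gfap at 8 weeks averaged -1.21 ± 0.46 in 7 CAC libraries and -1.71 ± 0.49 in 5 mock libraries (SD), a difference of 0.51 (two-sided exact permutation test, p = 0.106, adjusted p = 0.377). Against Vim the ratio averaged 0.37 ± 0.46 in CAC and -0.18 ± 0.25 in mock, a difference of 0.55 (exact permutation p = 0.0328, adjusted p = 0.181). At 6 weeks the Serpina3n to Gfap difference was smaller, at 0.13 (exact permutation p = 0.635, adjusted p = 0.894). Against Vim it was 0.42 at that week (exact permutation p = 0.0397, adjusted p = 0.181). None of the 32 such ratios, 8 genes against Gfap and Vim at 6 and 8 weeks, passed after adjustment by the exact permutation test, with 7 at an unadjusted p under 0.05. With adjustment over 32 ratios, a lone ratio at 8 weeks could reach an adjusted p of 0.081 at best. A ratio at 6 weeks could pass only if at least 6 of the 32 ratios, of either week, passed together. The adjusted p alone therefore says little about a single ratio. A call for Serpina3n and none for Gfap therefore does not show that the 2 genes differed in their change. Mock 8 week replicate 5 weighed on the ratio at 8 weeks: without it the Serpina3n to Gfap difference was 0.30 (adjusted p = 0.508), and 6 of the 32 ratios passed, none of them of Serpina3n.

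**Figure D3:**
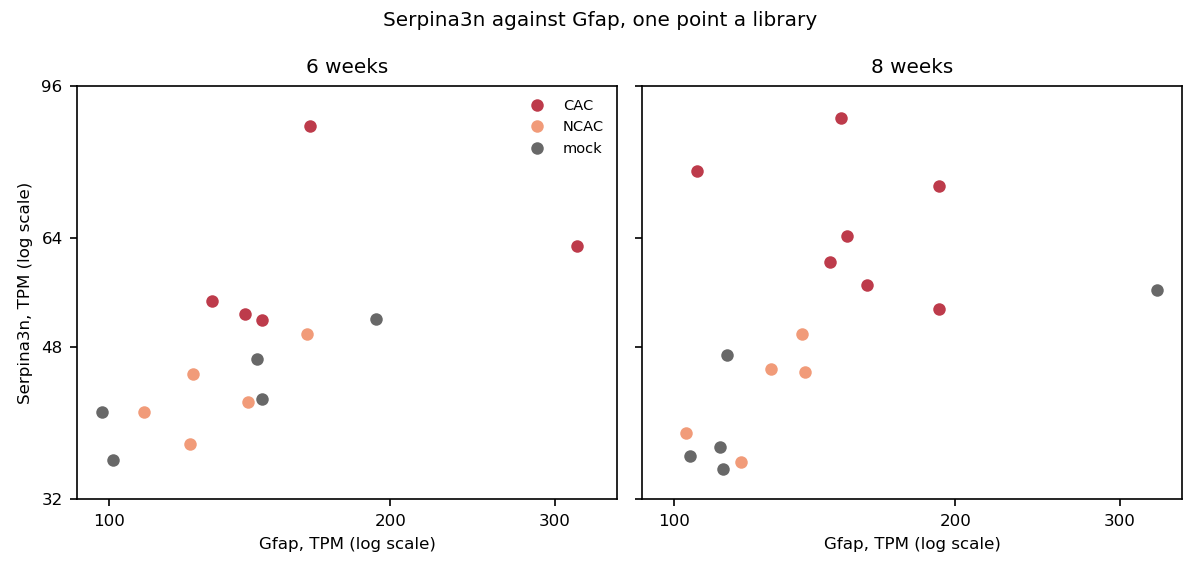
Serpina3n against Gfap in TPM (both axes logarithmic), one point a library, at 6 weeks (left) and 8 weeks (right). CAC points lie high on the Serpina3n axis at 8 weeks (53 to 88.2 TPM) across a Gfap range (106 to 192 TPM) that 4 of 5 mock libraries (104 to 114 TPM) meet at its low end, and the mock library at 329 TPM of Gfap had 55.8 TPM of Serpina3n.

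Timp1 encodes a secreted inhibitor of matrix metalloproteinases, at chrX:20870166-20874735 (plus strand). At 6 weeks Timp1 was at 2.54, 3.48, 1.44, 1.05 and 1.39 TPM in CAC, 0.96, 0.38, 0.558, 0.863 and 1.33 TPM in NCAC, and 1.2, 1.31, 0.746, 0.914 and 0.76 TPM in mock. CAC was higher on average, with overlap between its lower libraries and the higher ones of both other arms. In the wider set of genes Timp1 had a log2 fold change of 0.67 against NCAC (SE 0.20, limma adjusted p = 0.0344) and 0.53 against mock (SE 0.20, limma adjusted p = 0.194). In that set 6.84% of 18318 genes passed against NCAC and 1.24% against mock. The call against NCAC was lost without CAC replicate 1 (0.60, adjusted p = 0.108) or 2 (0.51, adjusted p = 0.0835), and without NCAC replicate 2 (0.58, adjusted p = 0.105), 3 (0.62, adjusted p = 0.065) or 4 (0.69, adjusted p = 0.0625). It was lost as well with trimmed mean scaling (0.63, adjusted p = 0.0634), with only the groups compared (adjusted p = 0.105) and with a pseudocount of 0.1, where the fold change was 1.15 (adjusted p = 0.0542). At 8 weeks Timp1 ranged from 0.895 to 2.13 TPM in CAC, with a median of 1.39, against 0.421, 0.963, 1.14, 0.325 and 2.79 TPM in mock (log2 fold change 0.24, SE 0.19, limma adjusted p = 0.5). Without mock replicate 5 this was 0.48 (adjusted p = 0.123). Timp1 lies within Syn1, an abundant neuronal gene on the opposite strand; the library kit keeps strand per the labels, but the counting setting is not given, so reads of the 2 genes may not be fully separated.

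Cd109 encodes a surface protein of the alpha-2-macroglobulin family that binds TGF-beta in human cells. It was at 0.842, 0.545, 0.48, 0.667 and 0.882 TPM in CAC at 6 weeks, 0.494, 0.44, 0.482, 0.481 and 0.4 TPM in NCAC, and 0.534, 0.456, 0.374, 0.47 and 0.548 TPM in mock. Of the 5 CAC libraries 3 lay above every library of both other arms, and the remaining pair fell among them. Cd109 had log2 fold changes of 0.20 against NCAC (SE 0.09, limma adjusted p = 0.159) and 0.18 against mock (SE 0.09, limma adjusted p = 0.374), which did not pass. At 8 weeks they were 0.15 against NCAC (SE 0.08, limma adjusted p = 0.345) and 0.09 against mock (SE 0.08, limma adjusted p = 0.608). Among 9 tested secreted serpins, protease inhibitors and proteases listed as partners of these genes, 1 rose in CAC against mock at 8 weeks and none was lower. It was Timp4, another metalloproteinase inhibitor, at 10.6 to 16.8 TPM in CAC against 10.9 to 12.9 TPM in mock (log2 fold change 0.29, SE 0.09, limma adjusted p = 0.0333). That call was lost when CAC replicate 1, 2, 5 or 6 was left out, and likewise for mock replicate 1, 2 or 4 (0.25 to 0.30, adjusted p from 0.0547 to 0.0858).

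Cd44 encodes a receptor for the matrix sugar hyaluronan. At 8 weeks Cd44 was at 1.08 TPM at the lowest, 1.79 at the median and 2.24 at the highest in CAC, against 1.94, 1.85, 1.72, 1.82 and 3.61 TPM in mock. Cd44 had a log2 fold change of -0.18 (SE 0.09, limma adjusted p = 0.242), and of -0.04 without mock replicate 5 (adjusted p = 0.866). At 2 weeks the CAC libraries were at 1.91, 1.43, 1.81, 1.45 and 1.91 TPM and the mock libraries at 2.14, 2.35, 2.08, 2.09 and 2.35 TPM. All CAC libraries lay below all mock libraries, a pattern with 1.16% of genes, and the fitted difference of -0.25 on the log2 scale (SE 0.10, limma adjusted p = 0.132) did not pass.

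S1pr3 encodes a receptor for sphingosine 1-phosphate, a lipid signal. It kept to a narrow band: 5.7 to 7.68 TPM in CAC with a median of 6.37, against 6.83, 6.91, 7.03, 7.04 and 6.88 TPM in mock at 8 weeks. Most CAC libraries lay below the mock libraries and 1 lay above. S1pr3 had a log2 fold change of -0.10 (SE 0.07, limma adjusted p = 0.467). Of 8 tested genes of sphingosine 1-phosphate signalling, 2 rose and 1 was lower. Spns2, an exporter of the lipid, was at 31 to 58.2 TPM in CAC against 28.8 to 32.9 TPM in mock (0.54, SE 0.11, limma adjusted p = 0.00108). Mfsd2a, a carrier of lysolipids at the blood-brain barrier, was at 22.9 to 57.2 TPM in CAC against 22.7 to 35.7 TPM in mock (0.75, SE 0.20, limma adjusted p = 0.0115). S1pr1, another receptor for the lipid, was at 98 to 151 TPM in CAC against 148 to 164 TPM in mock (-0.33, SE 0.08, limma adjusted p = 0.00475).

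Steap4 encodes a metalloreductase induced by cytokines in several tissues. At 8 weeks it was at 0.312 TPM at the lowest, 0.414 at the median and 0.868 at the highest in CAC, 0.178, 0.141, 0.184, 0.164 and 0.379 TPM in NCAC, and 0.142, 0.226, 0.115, 0.16 and 0.763 TPM in mock. All CAC libraries lay above 4 of 5 libraries of each other arm, and replicate 5 of NCAC and of mock lay within the CAC range. In the wider set of genes Steap4 had a log2 fold change of 0.29 against NCAC (SE 0.09, limma adjusted p = 0.0532) and 0.22 against mock (SE 0.09, limma adjusted p = 0.129), and neither passed. Without mock replicate 5 the second was 0.35 (adjusted p = 0.0104). The first passed without NCAC replicate 5 (0.34, adjusted p = 0.0481) and without CAC replicate 4 (0.32, adjusted p = 0.0452), 5 (0.31, adjusted p = 0.0398) or 7 (0.31, adjusted p = 0.0498). The share of genes that passed in that set was 4.71% against NCAC and 7.15% against mock. Of 5 tested relatives of Steap4 and Fabp7, Steap3 was lower in CAC than mock (-0.51, SE 0.14, limma adjusted p = 0.0127), at 1.45 to 3.5 TPM in CAC against 2.64 to 4.43 TPM in mock; without mock replicate 5 it was -0.45 (adjusted p = 0.0531).

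Hspb1 encodes a small heat shock protein that binds filaments and misfolded proteins. At 8 weeks Hspb1 was at 9.99 TPM at the lowest, 15.1 at the median and 25.1 at the highest in CAC, 12.4, 10.8, 9.02, 16.9 and 15 TPM in NCAC, and 13.6, 12, 12.9, 12.1 and 14.8 TPM in mock. CAC spread to both sides of the mock range. Hspb1 had a log2 fold change of 0.13 against mock (SE 0.19, limma adjusted p = 0.742) and 0.19 against NCAC (SE 0.19, limma adjusted p = 0.609). None of 10 other small heat shock and chaperone genes passed in either direction against mock by limma; Cryab, a small heat shock protein of glia, came nearest (-0.41, SE 0.14, adjusted p = 0.0535; it passed without CAC replicate 3, at -0.47, or 5, at -0.52), and 3 of the 10 had an unadjusted p under 0.05, among them Cryab (0.00478) and Hsph1 (0.0249).

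**Figure D4:**
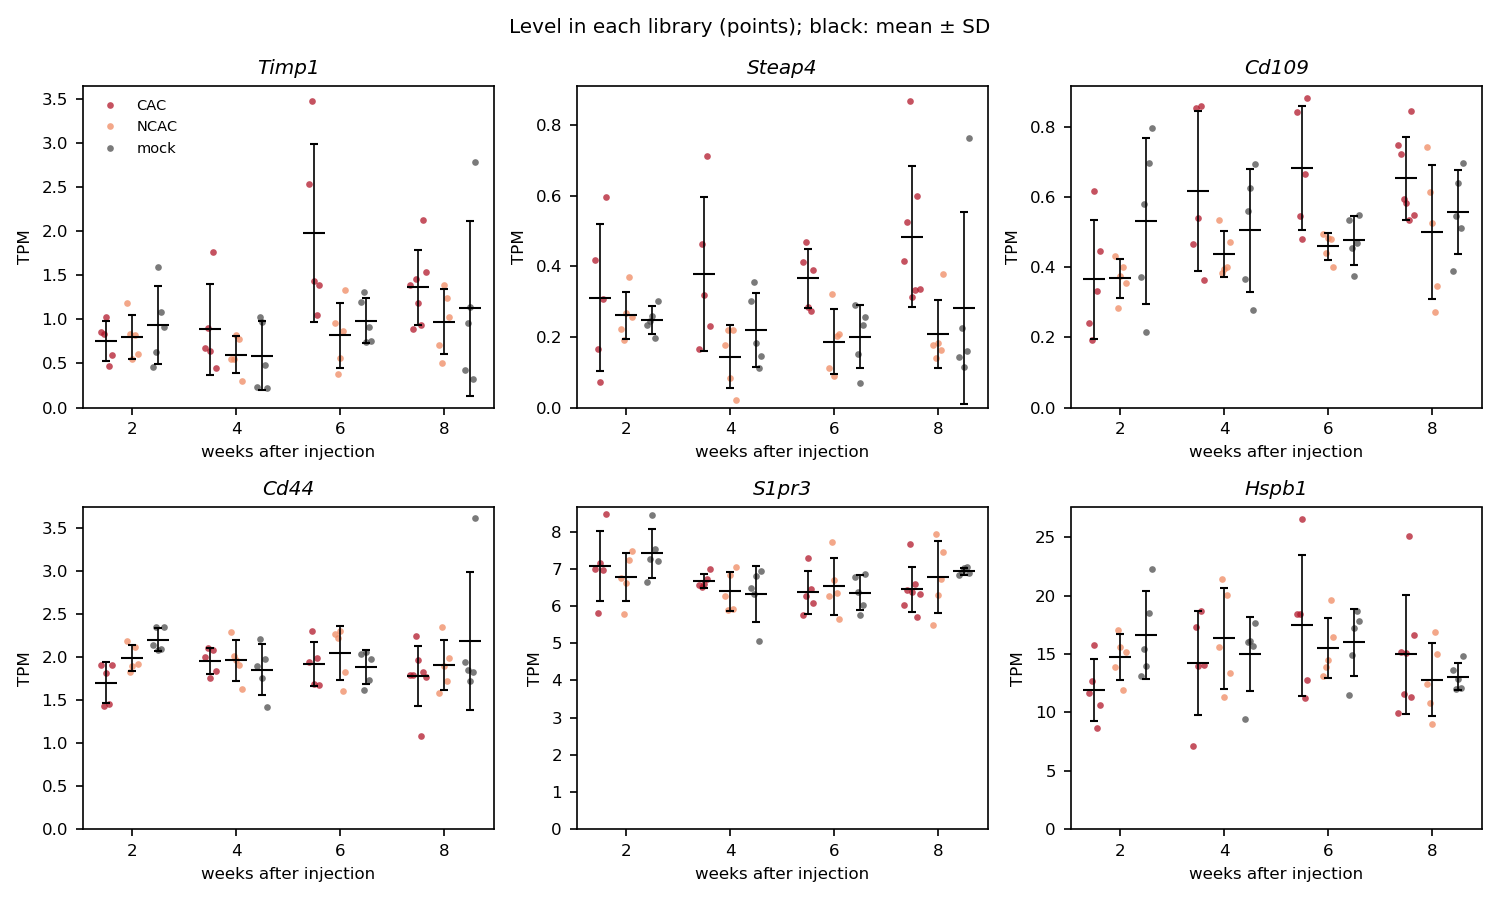
TPM of Timp1, Steap4, Cd109, Cd44, S1pr3 and Hspb1 (vertical axes, linear from 0) at 2, 4, 6 and 8 weeks, for CAC, NCAC and mock from left to right; each point is a library and black bars give the mean and SD. Timp1 (up to 3.48 TPM) and Steap4 (up to 0.868 TPM) reach their highest values in CAC, and mock 8 week replicate 5 is the high point of its group for Cd44 (3.61 TPM), Steap4 (0.763 TPM) and Timp1 (2.79 TPM).

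Fabp7 encodes the brain fatty acid binding protein of radial glia, astrocytes and olfactory ensheathing cells, at chr10:57784881-57788450 (plus strand). At 8 weeks Fabp7 was at 12.2 TPM at the lowest, 20 at the median and 52.1 at the highest in CAC, 77.8, 64.1, 30.2, 51.7 and 89.6 TPM in NCAC, and 75.8, 103, 55.1, 61.9 and 43.6 TPM in mock. Most CAC libraries lay below every mock library, and 2 of the 7, replicates 3 and 5, reached into the mock range. Fabp7 had a log2 fold change in CAC of -1.38 against mock (SE 0.32, limma adjusted p = 0.00353) and -1.23 against NCAC (SE 0.32, limma adjusted p = 0.0121). The call against NCAC was lost without NCAC replicate 5 (-1.08, adjusted p = 0.0671) and with only the groups compared (adjusted p = 0.088). At 6 weeks it was at 17.5, 28.1, 33.9, 27.3 and 29.8 TPM in CAC, 83, 52.7, 82.8, 45.5 and 50.2 TPM in NCAC, and 38.6, 74.4, 44, 63.5 and 62.3 TPM in mock. Every CAC library lay below every library of both other arms, a pattern with 1.48% of genes against NCAC and 1.05% against mock. Fabp7 passed against NCAC (log2 fold change -1.16, SE 0.35, limma adjusted p = 0.0286) and not against mock (-1.01, SE 0.35, limma adjusted p = 0.12). The call was lost without CAC replicate 1 (-1.01, adjusted p = 0.0948) or 4 (-1.16, adjusted p = 0.0575), without NCAC replicate 3 (-1.05, adjusted p = 0.0593), or with no filter (adjusted p = 0.0502).

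Fabp7 was already lower on average at 4 weeks, where CAC held 33.6, 15.9, 43, 31.4 and 82.9 TPM, NCAC 62.9, 54, 144, 42.5 and 77.6 TPM, and mock 65.7, 111, 53, 62.2 and 37.8 TPM. Replicate 5 of CAC lay within the other arms, and the log2 fold changes of -0.93 against NCAC (SE 0.35, limma adjusted p = 0.177) and -0.76 against mock (SE 0.35, limma adjusted p = 0.331) did not pass. Without that library the first was -1.22 (adjusted p = 0.0218). Lane and arm cannot be told apart in the comparison with mock at 4 weeks. CAC was lower than mock at 2 weeks too, which did not pass (-0.70, SE 0.35, limma adjusted p = 0.222). It was not lower than NCAC at that week (0.26, SE 0.35, limma adjusted p = 0.998). At 2 weeks NCAC was also lower than mock (-0.96, SE 0.35, limma adjusted p = 0.0658, not passed; -1.14, adjusted p = 0.0308 without NCAC replicate 4), with NCAC at 42.8, 58.9, 55.9, 92.7 and 44 TPM and mock at 91.3, 87.6, 212, 103 and 96.4 TPM. In the order of group means CAC at 6 weeks (27.3 ± 6.05 TPM), CAC at 8 weeks (28.1 ± 16.7 TPM, SD) and CAC at 4 weeks (41.4 ± 25.2 TPM) came lowest and overlapped in their spread; the other 9 groups had means from 56.5 to 118 TPM.

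Markers of the olfactory bulb and its ensheathing glia stood high in some libraries that were the highest of their group for Fabp7. Whether the marker score followed Fabp7 over all libraries was not tested. The score of that list lay 1.83 log2 units above the median in mock 2 week replicate 3 (Fabp7 212 TPM), 1.49 above it in NCAC 4 week replicate 3 (144 TPM) and 1.49 above it in CAC 8 week replicate 5 (52.1 TPM). None of its 7 markers was at 0 in any library. Of the 7, none was higher and 1, Npy, was lower in CAC against mock at 8 weeks (-0.31, SE 0.08, limma adjusted p = 0.00711), and the summed level was 281 to 387 TPM in CAC and 359 to 456 TPM in mock. Npy made up most of that sum, with an average over all libraries of 278 TPM against 49.4 TPM for Synpr, the next highest. A lower sum therefore does not by itself show less olfactory tissue. Other markers were lower in CAC beside Fabp7. Of 8 mature oligodendrocyte markers none was higher and 2 were lower in CAC against mock at 8 weeks, and 5 were lower in CAC against NCAC at 6 weeks. Opalin, a myelin membrane protein, was at 6.38 to 20.6 TPM in CAC against 18.3 to 27.1 TPM in mock at 8 weeks (-1.22, SE 0.21, limma adjusted p = 8.1e-05). Choroid plexus markers had a median sum of 162 TPM in CAC against 1014 TPM in mock at 8 weeks, and of 180 TPM in CAC against 1814 TPM in mock at 6 weeks, with wide overlap; none of the 7 passed by limma at 8 weeks, with 1 at an unadjusted p under 0.05. The part of oligodendrocytes in the Fabp7 result was not tested. With 5 marker scores as terms (olfactory bulb, striatum, thalamus, erythroid and choroid plexus), a choice made after seeing the data, Fabp7 kept its call in CAC against mock at 8 weeks at -1.14 (limma adjusted p = 0.000181), and in CAC against NCAC at 6 weeks at -0.892 (adjusted p = 0.0253). Within libraries, the ratio of Fabp7 to Gfap differed by -1.54 at 8 weeks (exact permutation p = 0.0177, adjusted p = 0.141) and by -1.36 at 6 weeks (exact permutation p = 0.00794, adjusted p = 0.127), 0.00794 being the smallest p that 5 against 5 libraries allow.

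Read together at 8 weeks, 1 of the 7 members tested rose and 1 was lower in CAC against mock, with a median log2 fold change of 0.13 against 0.02 over all genes. The 3 members tested in the wider set had values of 0.24 (Timp1), 0.22 (Steap4) and 0.09 (Cd109). At 2 weeks the members' median was -0.32 in CAC against mock, with 0.04 over all genes. No member passed there by limma, but 5 of 7 had an unadjusted p under 0.05 and all 5 were lower in CAC: Gfap, Vim (-0.32), Cd44, Hspb1 (-0.45) and Fabp7 (-0.70). Other markers were lower there too. The homeostatic astrocyte genes summed to 5525 to 6027 TPM in CAC and 6166 to 6630 TPM in mock, and the mural cell markers to 131 to 173 TPM in CAC and 185 to 218 TPM in mock, both without overlap. Microglia markers summed to a median of 394 TPM in CAC and 466 TPM in mock. Their part in the members' values was not tested. The background share of genes that passed after adjustment at 2 weeks was 4.28%. All background shares in this paragraph follow the adjusted p. The share of all genes at an unadjusted p under 0.05 was not counted. The members' counts by unadjusted p therefore have no background and are not read as a result. At 4 weeks no member passed, and the background shares of passing genes were 0.0414% against mock and 0.0069% against NCAC. Of the 7 tested only Fabp7 had an unadjusted limma p under 0.05 against each other arm there. These shares follow the adjusted p and are no background for that count. In the wider set the shares were 3.04% against mock at 2 weeks, 0.0218% against mock and 0.00546% against NCAC at 4 weeks, and 0.912% for the change from 2 to 8 weeks. In CAC against NCAC at 2 weeks no member passed and none had an unadjusted p under 0.05, with 0% of genes passing. In NCAC against mock no member passed by limma at any week. Fabp7 at 2 weeks had an unadjusted p of 0.0074, and none had one under 0.05 at 4, 6 or 8 weeks. The background shares there were 8.71% at 2 weeks (5.74% in the wider set) and 0% at the 3 later weeks. Between 4 and 8 weeks in mock animals no member passed and none had an unadjusted p under 0.05, with a background of 0%.

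Related lists were set beside the 10 genes in CAC against mock at 8 weeks. These lists, and those set beside single members above, were chosen with earlier results of these data known. Their counts are a description and not independent support. Of all 14494 genes tested, 4.91% passed higher and 3.69% lower in this comparison. Of 4 other pan-reactive astrocyte genes, 3 rose and none was lower (median log2 fold change 0.52). Lcn2, a secreted iron-siderophore carrier, was at 1.99 to 13.2 TPM in CAC against 0.302 to 0.911 TPM in mock (1.92, SE 0.21, limma adjusted p = 1.65e-08). Its mean outside CAC of weeks 6 and 8 was 0.471 TPM, below the filter of 1 TPM that it met through those CAC libraries, and the count of 3 does not stand as support. Osmr, the oncostatin M receptor, was at 2.11 to 3.48 TPM in CAC against 1.05 to 2.35 TPM in mock (0.55, SE 0.11, limma adjusted p = 8e-04). Cp, the copper carrier ceruloplasmin, was at 6.52 to 11.1 TPM in CAC against 5.35 to 9.08 TPM in mock (0.50, SE 0.12, limma adjusted p = 0.00716). Of 11 neuroinflammatory (A1) astrocyte genes 1 rose and 2 were lower (median -0.08). Fkbp5, a chaperone of steroid receptors that is also on the glucocorticoid list, rose (1.44, SE 0.23, limma adjusted p = 2.83e-05), and the interferon-induced GTPases Gbp2 (-0.91, SE 0.23, limma adjusted p = 0.00672) and Iigp1 (-0.95, SE 0.30, limma adjusted p = 0.0353) were lower. Mock replicate 5 reached 18.8 TPM of Gbp2 and 18.2 TPM of Iigp1, the highest of its group for both. Without it neither passed (Gbp2 -0.57, adjusted p = 0.096; Iigp1 -0.35, adjusted p = 0.438), none of the 11 was lower, and Iigp1 averaged 0.896 TPM, under the filter. The call for Iigp1 was also lost without CAC replicate 1, 2, 4, 6 or 7 (-0.94 to -0.88, adjusted p from 0.0567 to 0.0804). None of 6 ischaemia (A2) astrocyte genes passed by limma (median 0.23); Emp1 (0.24) and Tm4sf1 (-0.19) had unadjusted p of 0.0394 and 0.0451.

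**Figure D5:**
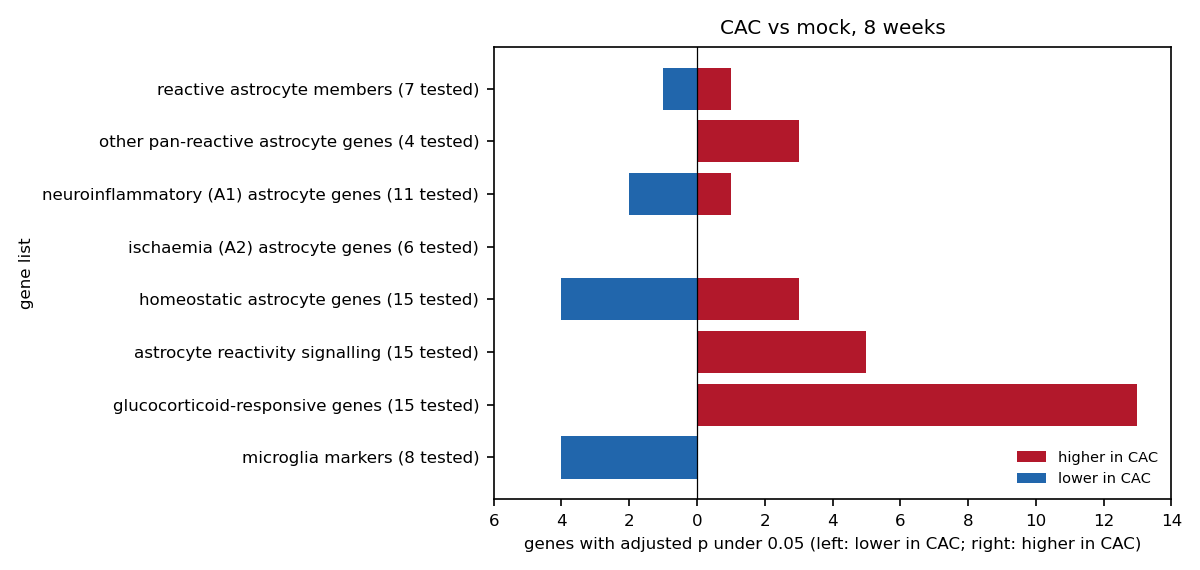
Number of genes of each list that passed in CAC against mock at 8 weeks (horizontal axis, lower in CAC to the left of 0, higher in CAC to the right), with the number tested beside each name. The glucocorticoid-responsive genes have 13 higher of 15, the homeostatic astrocyte genes 3 higher and 4 lower of 15, and the microglia markers 4 lower of 8. Of all genes tested, 4.91% passed higher and 3.69% lower. The lists were chosen with earlier results of these data known.

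Homeostatic astrocyte genes moved in both directions: 3 of 15 rose and 4 were lower (median -0.09). Gjb6, a gap junction connexin, was at 59.8 to 118 TPM in CAC against 61.9 to 81.7 TPM in mock (0.57, SE 0.13, limma adjusted p = 0.00403), and Glul, glutamine synthetase, was at 1425 to 2023 TPM in CAC against 1327 to 1606 TPM in mock (0.26, SE 0.07, limma adjusted p = 0.0106). Aqp4, the water channel of astrocyte endfeet, was at 35.2 to 70.1 TPM in CAC against 67.3 to 86.9 TPM in mock (-0.71, SE 0.12, limma adjusted p = 0.000113). S100b, a calcium-binding protein, was at 191 to 265 TPM in CAC against 260 to 301 TPM in mock (-0.28, SE 0.06, limma adjusted p = 0.00297). The 15 genes summed to 5179 to 6588 TPM in CAC and 5445 to 6393 TPM in mock, ranges that overlapped. With single libraries left out, 2 to 4 rose and 2 to 5 were lower; the 4 named kept their calls.

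Of 15 genes of the signalling that drives reactivity, 5 rose and none was lower (median 0.20). Those named by the rule were Cebpd, a C/EBP transcription factor (1.46, SE 0.26, limma adjusted p = 0.000129), Il1r1, the interleukin-1 receptor (0.78, SE 0.13, limma adjusted p = 3.71e-05), Nfkbia, the NF-kB inhibitor (0.76, SE 0.19, limma adjusted p = 0.00583), and Socs3, the feedback inhibitor of STAT3 (0.49, SE 0.13, limma adjusted p = 0.0129). Cebpd was at 8.02 to 13 TPM in CAC against 1.27 to 4.39 TPM in mock. The call for Socs3 was lost without mock replicate 2 (0.41, adjusted p = 0.0571), and the count was 3 without that library and 7 without CAC replicate 3 or mock replicate 5. Of 15 glucocorticoid-responsive genes 13 rose and none was lower (median 0.72), among them Sgk1 (1.39, SE 0.24, limma adjusted p = 0.000101), Arrdc2 (1.16, SE 0.19, limma adjusted p = 3.71e-05) and Sult1a1 (1.87, SE 0.32, limma adjusted p = 8.96e-05). The counts of this paragraph stand beside 4.91% of all genes higher and 3.69% lower, on lists chosen with earlier results known. Of 8 microglia markers none rose and 4 were lower (median -0.35), among them P2ry12 (-0.62, SE 0.11, limma adjusted p = 0.000101) and Cx3cr1 (-0.60, SE 0.11, limma adjusted p = 0.000203). Their summed level was 291 to 406 TPM in CAC and 410 to 607 TPM in mock, so the groups did not overlap, and the part of microglia in the members' values was not tested. Fkbp5 stands on both the A1 and the glucocorticoid list.

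The 3 genes whose log2(TPM + 1) followed each of 4 members most closely over the 62 libraries are given as a description; the libraries share arms, weeks and dissection. For Gfap they were C1qc (Pearson r 0.79), Grn (0.77) and C4b (0.76), for Vim Clic1 (0.79), Ifitm3 (0.75) and Msn (0.74). For Serpina3n they were Galnt16 (0.82), Adra2a (0.81) and Pnpla2 (0.80), and for Fabp7 Emp2 (0.88), Slc38a3 (0.86) and Tril (0.85). No gene stood among the nearest 3 of more than one of the 4.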

How the data were processed

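Neocortex RNA was sequenced from 62 mice on a NovaSeq with a stranded mRNA kit, per the labels' protocols. The authors deposited one table of TPM values for 47643 symbols; per the submitters' processing notes the genome was mm10. Which aligner, quantifier, annotation and strand setting were used is not given in the sources. The protocol text names other cells and another time than the design text, which was followed. Each column sums to 1000000 TPM, so counts were not tested. Depth was estimated from the spacing of low values: 86.4% of 207446 values between 0.5 and 10 reads were whole within 0.05 reads, for 44.9 to 50.6 M reads per library (M, 1000000; median 48.1). Of the symbols 45065 matched GENCODE vM21 (GRCm38), 27 had been turned into dates, and 22257 genes were at 0 in every library. The highest correlation between libraries was 0.9943, and none was counted as a duplicate.

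The members and lists were chosen with earlier results of these data known. Limma 3.58.1 (R 4.3.3) was fitted to log2(TPM + 1) over 12 groups (50 residual degrees of freedom, trended moderation, 15 comparisons), for 14494 genes averaging 1 TPM or more; members below that were tested among 18318 genes averaging 0.1 TPM or more. Ratios were tested by exact permutation (SciPy 1.17.1). The test was tried on simulated data. All 10 members are named; from each other list, up to 4 genes that passed in CAC against mock at 8 weeks, ordered by p, or up to 2 if none did, and the 3 most correlated genes for 4 members. The relatives of Serpina3n are outside that rule. Alternatives changed the pseudocount to 0.1, the filter, the scaling (a trimmed mean of ratios), the samples in the fit, the moderation, lane as a term at week 4, a block for replicate number, and left out each library. Chosen after seeing the data were a fit with 5 marker scores as terms and one without 4 libraries (mock 2 week replicate 5, CAC 4 week replicate 1, CAC 8 week replicate 3, mock 8 week replicate 5); the values of named genes without single libraries were also added then. Promoter windows are from RefSeq (GRCm38.p6).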

Additional observations from a re-analysis of the deposited data

Results flagged for a closer look

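Of 120 tests, one for each member in each group, 12 had a library far from the others of its group by Dixon's criterion; chance alone flags about 1 in 20 groups. Mock 8 week replicate 5 accounted for 4 of them. It was the highest of its group for Gfap (329 TPM, the others 104 to 114), Vim (81.3 TPM, the others 34.4 to 43.4), Cd44 (3.61 TPM, the others 1.72 to 1.94) and Steap4 (0.763 TPM, the others 0.115 to 0.226). In the same library microglia markers lay 0.58 log2 units above the median, and the neuroinflammatory (A1) astrocyte genes 1.53 above it. The other pan-reactive astrocyte genes lay 1.39 above it. CAC 6 week replicate 2 was the highest of its group for Gfap (317 TPM, the others 129 to 164), with the other pan-reactive genes 2.05 above the median.

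The remaining 7 were single. For Vim, NCAC 2 week replicate 4 was at 55.5 TPM (the others 39.1 to 42.8) and CAC 4 week replicate 4 at 47.9 TPM (the others 35.2 to 38.3). Serpina3n was at 52.7 TPM in mock 2 week replicate 5 (the others 36.6 to 40.4). Cd44 was at 1.08 TPM in CAC 8 week replicate 5, the lowest of its group (the others 1.77 to 2.24). Steap4 was at 0.379 TPM in NCAC 8 week replicate 5 (the others 0.141 to 0.184). Hspb1 was at 9.48 TPM in mock 4 week replicate 1, the lowest of its group (the others 15.7 to 17.7). Fabp7 was at 212 TPM in mock 2 week replicate 3 (the others 87.6 to 103), where olfactory markers lay 1.83 log2 units above the median.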

How the results depend on the processing

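Serpina3n in CAC against mock at 8 weeks passed under every alternative run, with log2 fold changes of 0.608 to 0.781 when single libraries were left out, and so did Serpina3n in CAC against NCAC at 8 weeks (0.574 to 0.698). Replicate numbers were not taken as pairs, since in no comparison were the correlations of all same-numbered pairs over 0.1 (-0.25 to 0.28; CAC against NCAC at 4 weeks had 4 of 5 over it). With the replicate block, 1 member in place of 2 passed in CAC against mock at 8 weeks and 1 in CAC against NCAC at 8 weeks; Fabp7 was then at -1.09 (adjusted p = 0.0601) and -0.949 (adjusted p = 0.158), and it changed the count in no other comparison. With only the groups compared, Fabp7 in CAC against NCAC at 8 weeks was at -1.23 (adjusted p = 0.088), leaving 1 member, and 1 member (Fabp7, -1.01, adjusted p = 0.031) passed in CAC against mock at 6 weeks, where none had. In CAC against NCAC at 6 weeks 1 member, Fabp7, passed with trimmed mean scaling, with only the groups compared and with 5 marker scores as terms. With no filter 1 member passed there as well, but it was Timp1 (0.67, limma adjusted p = 0.0484), which the main filter had left out. Serpina3n and Fabp7 both lost their calls in that setting. The change of the CAC minus mock difference from 2 to 8 weeks had 1 member (Serpina3n) with trimmed mean scaling (0.79, adjusted p = 0.04) and without the 4 libraries that stood apart (0.84, adjusted p = 0.0299). Leaving out single libraries gave 0 to 2 members in CAC against NCAC at 6 weeks, 1 to 2 at 8 weeks, 0 to 1 at 4 weeks, 0 to 1 in NCAC against mock at 2 weeks, 0 to 3 for the change from 2 to 8 weeks, and 0 to 6 of the 32 ratios, the 6 without mock 8 week replicate 5. Vim in CAC against mock at 6 weeks turned to -0.0144 without CAC replicate 2, and single libraries left out gave up to 0.187. Serpina3n in CAC against NCAC at 6 weeks lost its call in 10 of 19 alternatives, Fabp7 there in 4 of 19, and Timp1 in 8 of 16. The cause of these changes was not tested. Trimmed mean scaling moved the median of all genes by at most 0.08. Timp1 and Steap4 rest on few reads, which limits both.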
